A study of Mus musculus with 2 samples.

Results

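The HCN channel genes Hcn2, Hcn3 and Hcn4 and the auxiliary subunit gene Pex5l were examined in left cerebral cortex from 2 male mice. They were taken by name as 4 of the 55536 annotated genes measured, and all 4 were found once in each deposited table. Per the labels, both animals were of the strain 5xFAD/CAST, adult and 8 to 10 months old, and 300 ng of total RNA went into each library. The 5xFAD parent carries human amyloid precursor protein and presenilin transgenes with familial Alzheimer disease mutations, which the neuronal Thy1 promoter drives, and CAST is a wild-derived inbred strain. The labels put both animals in 1 group as biological replicates 1 and 2, with separate biosamples and a shared strain-level donor label. Mice without the transgenes were not analysed here. The measurements are therefore levels in a single group, and no comparison between groups or p-value can be made from them.

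HCN channels are tetrameric cation channels that open on hyperpolarization and carry the current known as Ih, which sets resting potential, dendritic integration and rhythmic firing. Cyclic AMP binds to a domain in their cytoplasmic tail and, in most subunits, eases opening. Pex5l encodes TRIP8b, a relative of the peroxisomal import receptor Pex5 that binds the tail of HCN subunits, steers their traffic to the surface and into dendrites, and counters the effect of cyclic AMP. Its alternative starts and optional exons give amino termini that differ in how they move the channels to or from the surface.

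The depth was 33925198 reads on annotated genes for replicate 1 and 32380299 for replicate 2. On the CPM scale, which relates a gene's reads to the depth of its library, 3 reads corresponded to 0.0884 and 0.0926. Levels are given in TPM, an abundance per transcript length that sums to a fixed total in each library. Marker lists of brain cell types and regions gave these levels: median TPM in replicates 1 and 2 was 233 and 262 for excitatory neurons, 8.90 and 10.1 for deep layer projection neurons, 56.8 and 59.2 for inhibitory neurons, 205 and 200.5 for astrocytes, 136 and 139 for oligodendrocytes, 14.3 and 14.9 for their precursors, 34.6 and 33.1 for microglia and 14.8 and 14.8 for endothelium. Striatal markers had medians of 36.3 and 45.2 TPM, above those of the deep layer list, and hippocampal markers of 0.885 and 0.470 TPM. The hippocampal list was uneven: 2 of its 6 genes had at least 1 TPM in both animals, and its sums were 65.1 and 67.9 TPM. Most of each sum came from the gene Wfs1, at 57.2 and 62.2 TPM. In such bulk tissue, fewer cells of a type and less RNA per cell cannot be told apart.

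The stretch around the selectivity filter is shown first because it carries the signature of the channel family in all 3 genes and shows how far their coding bases differ. The sequences are coding bases of the leading transcript of each gene, read 5′ to 3′ from the GENCODE M21 transcripts on mm10. Capitals mark the codons of the glycine, tyrosine and glycine that line the filter.
Hcn2, chr10:79728932-79728991, plus strand: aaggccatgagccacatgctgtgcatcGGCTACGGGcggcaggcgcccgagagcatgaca
Hcn3, chr3:89150982-89151041, minus strand: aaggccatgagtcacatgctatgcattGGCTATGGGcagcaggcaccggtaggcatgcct
Hcn4, chr9:58855564-58855623, plus strand: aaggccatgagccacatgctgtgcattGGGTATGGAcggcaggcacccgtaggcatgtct

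Of these 60 bases, 48 were identical between Hcn2 and Hcn3, 50 between Hcn2 and Hcn4 and 53 between Hcn3 and Hcn4. The leading transcript of each gene had 8 exons, and exons 3 to 7 had the same lengths in all of them: 162, 219, 147, 241 and 165 bases. Over these 934 bases, Hcn2 was 78.9% identical to Hcn3 and 83.4% to Hcn4, and Hcn3 was 81.8% identical to Hcn4. Read in the sense direction, no stretch of 50 bases of any member's transcripts recurred in transcripts of another annotated gene. The members thus share no such sense run with each other or with an annotated pseudogene. Reverse complements were not compared.

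Pex5l, the auxiliary subunit, had the highest level of the members. Pex5l (ENSMUSG00000027674.16, mm10 chromosome 3, 32949408 to 33143247, minus strand) stood at 86.2 TPM in replicate 1 and 93.4 TPM in replicate 2, a mean of 89.8 ± 5.11 TPM (SD, n = 2), from 6099 and 5928 reads. This level lay at percentile 95.7 of the 22015 protein-coding genes of the nuclear genome, whose median was 3.90 TPM.

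Hcn2, the HCN subunit that is widespread in the brain, was the main one of the 3 channel genes. Hcn2 (ENSMUSG00000020331.9, chromosome 10, 79716634 to 79736108, plus strand) stood at 70.3 and 71.0 TPM, a mean of 70.6 ± 0.495 TPM (SD, n = 2), from 5431 and 4898 reads, at percentile 93.9. It made up 89.2% and 87.2% of the summed TPM of Hcn2, Hcn3 and Hcn4. The values of the animals lay below both values of Pex5l.

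Hcn3, a subunit with little response to cyclic AMP, was low. Hcn3 (ENSMUSG00000028051.10, chromosome 3, 89146074 to 89160196, minus strand) stood at 6.24 and 7.76 TPM, a mean of 7.0 ± 1.07 TPM (SD, n = 2), from 401 and 425 reads, at percentile 57.1. Hcn2 stood 11.3-fold above it in replicate 1 and 9.15-fold in replicate 2. The 3′ end of Hcn3 overlaps the 3′ end of the pyruvate kinase gene Pklr on the opposite strand, which stood at 0.03 and 0.02 TPM.

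Hcn4, the slowly gating subunit of the cardiac pacemaker and of thalamic neurons, was the lowest. Hcn4 (ENSMUSG00000032338.9, chromosome 9, 58823412 to 58863175, plus strand) stood at 2.30 and 2.69 TPM, a mean of 2.50 ± 0.276 TPM (SD, n = 2), at percentile 45.8. Its 345 and 361 reads were nearly as many as those of Hcn3, on a transcript of 6118 bases against 4002 bases for the Hcn3 coding transcript. Hcn3 stood 2.71-fold and 2.88-fold above Hcn4 in TPM.

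The order of levels was therefore Pex5l, Hcn2, Hcn3 and Hcn4 in both animals, with no overlap of the animals' values between neighbours. The log2 gap of Pex5l over Hcn2 was 0.35 ± 0.07, that of Hcn2 over Hcn3 was 3.34 ± 0.21 and that of Hcn3 over Hcn4 was 1.48 ± 0.06 (SD, n = 2). Each gap was larger than its spread between the animals. The first gap depended on which transcripts were counted and on the deposited table. Over protein-coding transcripts alone, a setting added after the data were seen, Pex5l stood at 69.9 and 76.0 TPM against 70.3 and 71.0 TPM for Hcn2. These values overlapped and the gap of 0.05 ± 0.07 was within its spread. In the second deposited transcript table, of kallisto format, coding transcripts stood at 86.2 and 76.5 TPM for Pex5l. Those of Hcn2 stood at 70.6 and 62.3 TPM there, without overlap. However, the transcript Pex5l-203 held 24.3% and 17.0% of this coding TPM of Pex5l in replicates 1 and 2. In the RSEM-format table it held 0.243% and 1.79%. The separation in the kallisto-format table therefore counts a transcript on which the tables differ, and whether it holds without Pex5l-203 was not tested.

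**Figure D1:**
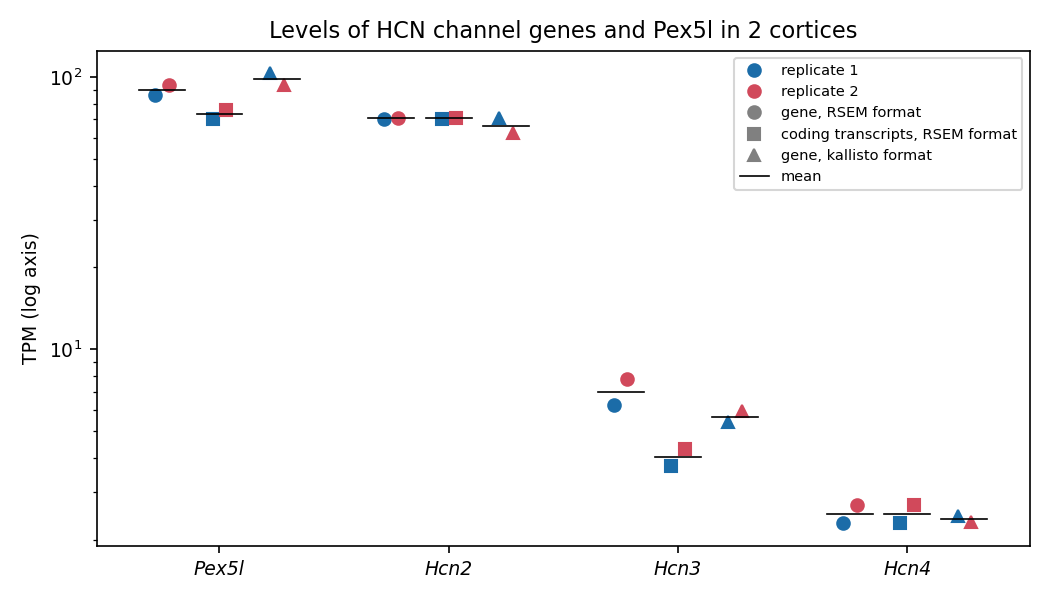
TPM on a log axis for each member in replicate 1 (blue) and replicate 2 (red): circles are gene levels and squares coding transcripts from the RSEM-format tables, triangles are gene levels from the kallisto-format table, and lines are means of the 2 animals. Pex5l and Hcn2 lie close together far above Hcn3 and Hcn4, and of the values drawn they overlap only for coding transcripts of the RSEM-format tables.

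The transcripts of the channel genes differed in how much they added to these levels. Hcn4 has 1 annotated transcript. Hcn2 has 2 annotated transcripts with the same coding sequence of 2589 bases, and Hcn2-202 took 100% of the gene's TPM in both animals. The other, Hcn2-201, in which an intron is spliced from the 3′ end, was listed at 0 reads, which allows a share of the gene's reads of up to 0.0552% and 0.0612% by counting error alone. That limit leaves out the uncertainty of assigning reads to transcripts: posterior means put Hcn2-201 at 0.3% and 0.38% of the gene's TPM, and the kallisto-format table at 0% and 0.452%.

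For Hcn3, short noncoding transcripts held much of the TPM on few reads. The coding transcript Hcn3-201 stood at 3.74 and 4.30 TPM, a mean of 4.02 ± 0.396 TPM, and took 59.9% and 55.4% of the gene's TPM. In reads, its share was 90.9% and 88.0%. The other transcripts are 2 annotated as retaining an intron, Hcn3-202 and Hcn3-203, and the processed transcript Hcn3-204. Together they held 36.4 and 51.1 expected reads and 2.50 and 3.48 TPM, since 1 read weighs more on a short transcript.

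The split among these short Hcn3 transcripts was not stable between the animals. Hcn3-202 took 20.45% of the gene's TPM in replicate 1 and 3.93% in replicate 2, Hcn3-204 took 4.88% and 18.1%, and Hcn3-203 took 14.7% and 22.6%. The deposited intervals of the TPM of each overlapped between the animals. Hcn3-202 was at 0% in both animals in the second, kallisto-format transcript table.

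Pex5l has 12 annotated transcripts, of which 9 are protein-coding with 5 distinct coding sequences. Their 5′ ends fall into 3 places. The upstream start lies at the outermost 5′ end, the middle start lies 60187 to 61179 bases further in, and the downstream start lies 158168 bases in. The coding bases that open the protein at the upstream and middle starts are shown because they are what the starts exchange. Capitals mark start codons. In the middle start, the first opens the coding sequences of 1845 and 1950 bases and the second opens the one of 1773 bases.
Upstream start, chr3:33142849-33142869, minus strand: ATGtaccagggacacatgcag
Middle start, chr3:33081976-33082068, minus strand: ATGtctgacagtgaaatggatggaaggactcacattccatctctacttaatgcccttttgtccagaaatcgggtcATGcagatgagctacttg

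The 2 optional coding exons that follow the starts, and the alternative splice site further on, are shown because the splice forms are told apart by them. In the last sequence, capitals mark the 3 bases that the longer form of the exon adds in front.
Exon of 72 bases, chr3:33080465-33080536, minus strand: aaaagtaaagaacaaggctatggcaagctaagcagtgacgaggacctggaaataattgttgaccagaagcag
Exon of 105 bases, chr3:33024696-33024800, minus strand: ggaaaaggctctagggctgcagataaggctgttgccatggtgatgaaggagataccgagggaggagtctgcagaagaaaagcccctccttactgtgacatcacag
Longer exon, first 30 bases, chr3:33006017-33006046, minus strand: TAGacattcaaacacaactggaaaaatggg

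In the RSEM-format table the most abundant single transcript was Pex5l-206, which runs from the upstream start past both optional exons to the shared downstream exons. It stood at 26.3 and 25.1 TPM, or 30.5% and 26.9% of the gene, a mean of 28.7% ± 2.57 (SD, n = 2). It is the only coding transcript of the upstream start and encodes the coding sequence of 1701 bases. In the kallisto-format table its share was 15.9% and 20.5%, below both values of the RSEM-format table. There it led in replicate 2 only, and Pex5l-203 led in replicate 1 at 20.3%.

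Transcripts of the middle start came next. Pex5l-209, which holds both optional exons, took 14.1% and 20.4%, and Pex5l-205, which holds the exon of 72 bases and skips that of 105, took 19.5% and 16.0%. Their order was opposite in the 2 animals, and the deposited TPM intervals of each overlapped between the animals. Pex5l-204, with the second start codon and the longer exon, took 8.60% and 9.59%, and Pex5l-211, which has both optional exons behind an unspliced first exon, took 7.71% and 7.08%.

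A retained-intron transcript from the upstream start, Pex5l-202, took 12.2% and 11.1% of the gene at 10.5 and 10.4 TPM. It carries an exon of 1055 bases where the coding transcripts splice. Of the transcripts below 5%, Pex5l-212, a single unspliced exon of 3214 bases at the upstream start, stood at 3.10 TPM in replicate 1 and 4.11 TPM in replicate 2. It was the only Pex5l transcript whose deposited TPM intervals, 2.61 to 3.44 and 3.52 to 4.52, did not overlap. Noncoding transcripts together held 16.2 and 17.4 TPM, and coding transcripts took 81.2% and 81.4% of the gene's TPM.

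**Figure D2:**
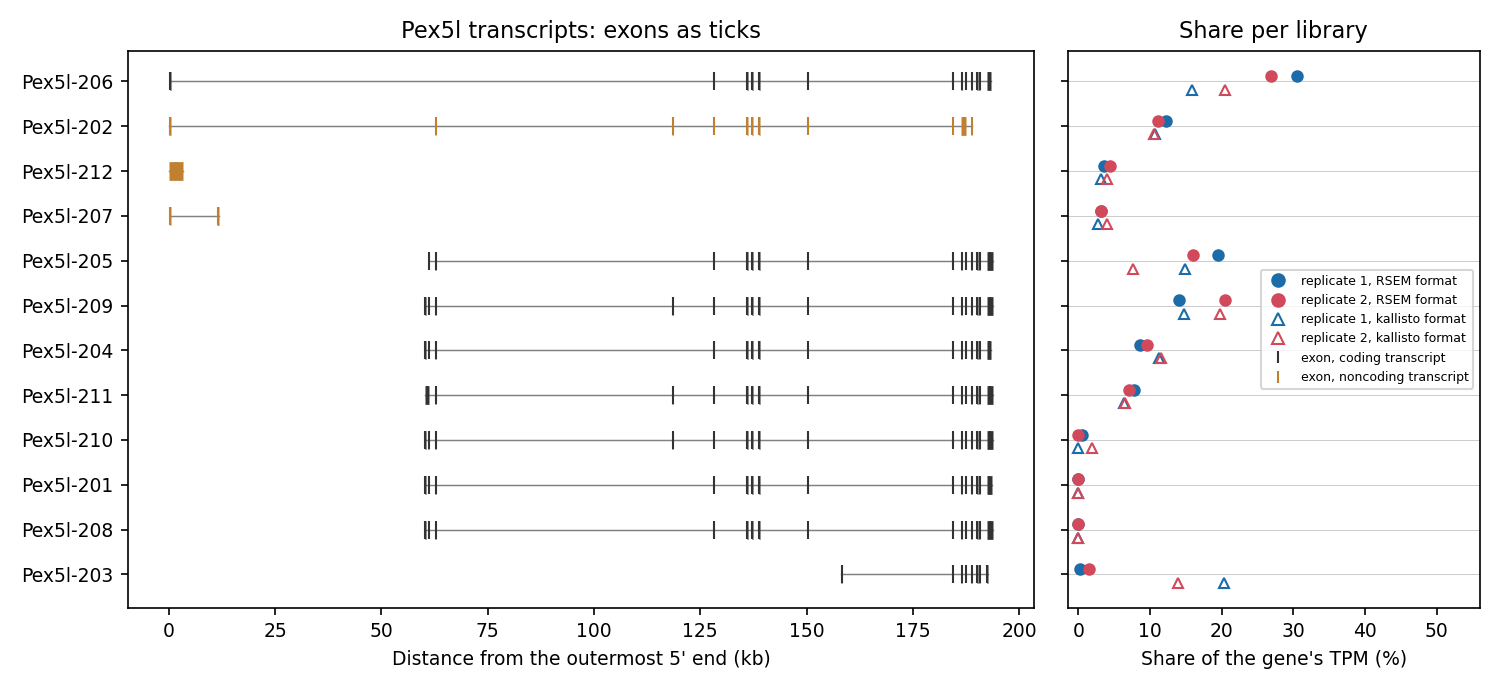
Left, the 12 annotated Pex5l transcripts against distance from the outermost 5′ end in kilobases, with exons as ticks (dark for coding, orange for noncoding transcripts). Right, each transcript's share of the gene's TPM in percent for replicate 1 (blue) and replicate 2 (red), circles for the RSEM-format and open triangles for the kallisto-format table. Pex5l-206 leads in the RSEM-format table, and Pex5l-203 is near 0 there but at 20.3% and 13.9% in the kallisto-format table.

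Grouped by start, the RSEM-format TPM of Pex5l, with noncoding transcripts included, were split almost evenly between the upstream and the middle start. The upstream start took 49.4% and 45.5% of the gene's TPM, and the middle start 50.4% and 53.0%. The means were 47.4% ± 2.72 and 51.7% ± 1.83 (SD, n = 2), and the middle start was higher in both animals without overlap, although only narrowly in replicate 1. Among coding transcripts alone, the middle start led with 62.1% and 65.2% against 37.6% and 33.1% for the upstream start, and the values of the animals did not overlap.

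The downstream start, used by Pex5l-203 with a coding sequence of 1032 bases, was the point where the deposited tables differed most. It took 0.197% and 1.46% of the gene's TPM in the RSEM-format table, from 4.74 and 32.9 expected reads. In the kallisto-format table it took 20.3% and 13.9%. The kallisto-format table put the upstream start at 32.5% and 38.9% and the middle start at 47.2% and 47.2%. All exons of Pex5l-203 but its first and the end of its last are those of the longer transcripts, and whether this start was used was not tested.

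Shares of the optional exons moved with the table as well. They were taken over 9 transcripts that leave out Pex5l-203, which starts beyond these exons, so they cannot be set against the shares of the starts. The exon of 72 bases was in 67.2% and 70.4% of the TPM of the 9 transcripts that span it, and in 78.4% and 73.8% in the kallisto-format table. The exon of 105 bases was in 37.0% and 42.4%, and in 43.0% and 49.4% in the kallisto-format table. It was more often included in replicate 2 than in replicate 1 in both tables, and 2 animals give no measure of whether such a difference recurs. The longer form of the exon of 124 bases took 22.3% and 22.7%, and 29.7% and 28.2% in the kallisto-format table. These shares are not of coding transcripts alone, since the noncoding Pex5l-202 carries both optional exons and the longer form. Of the transcripts with the longer form, Pex5l-202 stood at 10.5 and 10.4 TPM and the coding Pex5l-204 at 7.41 and 8.95 TPM in the RSEM-format table.

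Which coding sequence led was not settled. In the RSEM-format table, the one of 1701 bases, from the upstream start, took 37.6% of the coding TPM in replicate 1 and 33.1% in replicate 2. The one of 1950 bases, from the middle start with both optional exons, took 27.5% and 33.8%, so that each led in 1 animal. The sequence of 1845 bases took 24.02% and 19.6% and that of 1773 bases 10.6% and 11.8%. In the kallisto-format table, the sequence of 1950 bases led in both animals at 25.3% and 34.4%, while that of 1701 bases stood at 19.1% and 25.1%. The sequence of 1032 bases, at 0.243% and 1.79% in the RSEM-format table, took 24.3% and 17.0% in the kallisto-format table, close behind the leader in replicate 1.

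**Figure D3:**
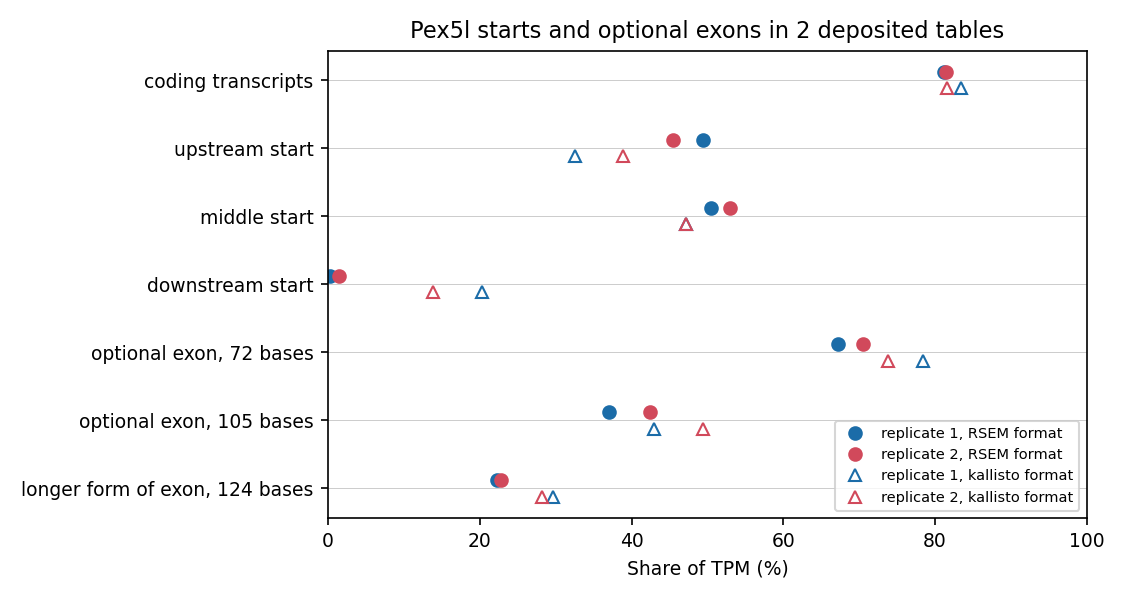
Share of TPM in percent for the Pex5l starts, coding transcripts, optional exons (among the transcripts that span them) and the longer exon form, for replicate 1 (blue) and replicate 2 (red), in the RSEM-format (circles) and kallisto-format tables (open triangles). The downstream start differs most between the tables, while coding transcripts lie between 81.2% and 83.4% in all 4 values.

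Genes for proteins reported to bind or regulate HCN channels were mostly detected as RNA. Of 15 such genes, 12 had at least 1 TPM in both animals, and the list's medians were 27.2 and 33.9 TPM. The highest were Apba2, a synaptic PDZ adaptor also called Mint2, at 88.8 and 94.0 TPM, and Lin7b, a PDZ scaffold protein gene, at 56.9 and 71.1 TPM. Apba2 thus stood near Pex5l. The lowest was Cav3, the caveolin of muscle, with 7 reads in replicate 1 and 0 in replicate 2.

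Kcne2, a small accessory subunit of potassium channels that can also join HCN channels, was the only one of these genes that differed between the animals when reads were compared as described for the members. It stood at 1.03 TPM in replicate 1 and 0.29 TPM in replicate 2, from 41 and 10 reads, a log2 ratio of -1.95 (95% counting interval -3.16 to -0.98). Kcne2 is also a gene of the choroid plexus. All 6 markers of that tissue were higher in replicate 1 by the same rule, with a median log2 ratio of -1.84 and summed levels of 20.2 and 6.43 TPM; none was at 0, and the part of that tissue in the Kcne2 difference was not tested.

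Other channels with a cyclic nucleotide binding or homology domain ranged widely. Of 14 genes, 7 had at least 1 TPM in both animals, and all 7 belong to the Kcnh potassium channels. Kcnh3 led at 61.5 and 67.6 TPM, followed by Kcnh7 at 23.5 and 31.3 TPM. Hcn2 lay just above Kcnh3 in both animals. The photoreceptor channel genes Cnga1 and Cngb3 were listed at 0 in both animals.

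Genes of peroxisomal import, the process of the Pex5l relative Pex5, stood well below Pex5l. All 8 genes examined had at least 1 TPM in both animals, with medians of 10.705 and 10.995 TPM. Pex5, the receptor for peroxisomal matrix proteins, stood at 20.4 and 23.3 TPM, and Pex14, its docking partner, at 21.1 and 25.4 TPM. The lowest of the 8 was Pex26, a protein of the peroxisomal membrane, at 5.59 and 6.44 TPM.

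**Figure D4:**
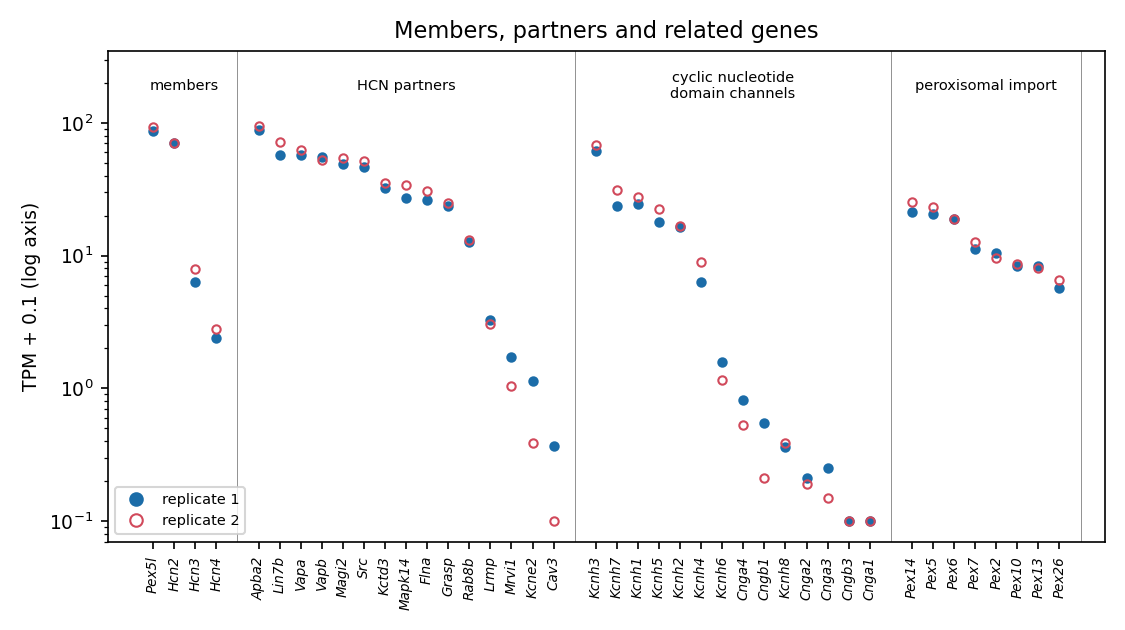
TPM plus 0.1 on a log axis for the members, 15 reported HCN partners, 14 other channels with a cyclic nucleotide domain and 8 peroxisomal import genes, in replicate 1 (filled blue) and replicate 2 (open red). Pex5l and Hcn2 lie at the level of the highest genes of these lists, such as Apba2 and Kcnh3, while Hcn3 and Hcn4, at 7.0 and 2.50 TPM, lie below the median of the partners and above that of the channels with a cyclic nucleotide domain.

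The members were then compared between the animals. Reads were scaled by TMM library sizes. A difference between the animals was called for a ratio of 2-fold or more in a gene with 10 reads or more in either animal, provided that equal levels lay outside a Clopper-Pearson interval stricter than the 95% intervals printed here. By this rule 1.22% of the 19484 genes tested differed, 111 or 0.57% higher in replicate 2 and 126 or 0.647% higher in replicate 1. None of the 4 members did, a count close to what this background share gives for any 4 genes. No p-value was computed, with 1 library on either side, and the intervals speak of counting error alone, as no molecular identifiers were used to separate molecules from copies.

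Log2 ratios of replicate 2 over replicate 1 were small for each member. Pex5l had a ratio of -0.01 (95% interval -0.06 to 0.05), Hcn3 of 0.12 (-0.08 to 0.32) and Hcn4 of 0.10 (-0.12 to 0.32), intervals that include equal levels. Hcn2 had a ratio of -0.11 (-0.17 to -0.06), which excludes equal levels by counting error. The median absolute ratio over all genes tested was 0.13. Those genes include many with far fewer reads than Hcn2, so this median does not place Hcn2 among genes of similar depth. The TPM of Hcn2 were nearly equal while its CPM were 160 in replicate 1 and 151 in replicate 2. In the kallisto-format counts the ratio of Hcn2 was -0.14 and that of Hcn4 was -0.04, so the direction for Hcn4 turned with the table.

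Markers of the thalamus, where Hcn2 and Hcn4 are known to be high, were set beside these ratios. Of 11 markers, 10 had a ratio below 0, with a median of -0.58, and 3 were higher in replicate 1 by the rule: the kinase gene Prkcd at -1.61, the transcription factor gene Zic1 at -1.23 and the transcription factor gene Lhx9 at -1.24. Summed over the list, the levels were 75.4 and 52.0 TPM, and no marker was at 0. Hcn2 had a ratio of -0.11, while that of Hcn4 was 0.10 in the expected counts and -0.04 in the kallisto-format counts. The part of thalamic tissue in these values was not tested. In the lists of excitatory neurons, deep layer projection neurons and inhibitory neurons, median ratios were 0.03, 0.02 and -0.10. None of their 18 genes differed by the rule, and all 6 of the inhibitory list were below 0. Medians were -0.15 for astrocytes, -0.12 for oligodendrocytes, -0.09 for their precursors and -0.17 for microglia, with every gene of these lists below 0. None of these genes differed by the rule either. The endothelium list had a median of -0.09 and the striatum list of 0.05.

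**Figure D5:**
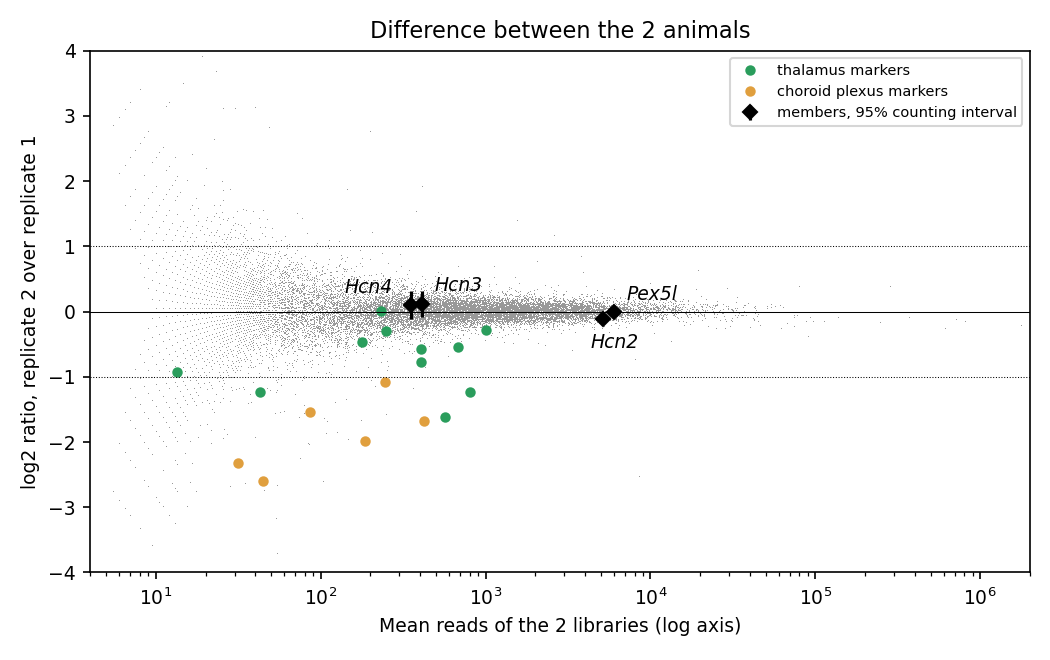
Log2 ratio of replicate 2 over replicate 1 against mean reads on a log axis for the genes tested (grey points), with thalamus markers in green, choroid plexus markers in orange and the members as black diamonds with 95% counting intervals; dotted lines mark 2-fold. The members lie near 0, the choroid plexus markers all below -1, and 88 genes beyond the axis of -4 to 4 are not drawn.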

How the data were processed

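Total RNA-seq of 2 cortices was used. Per the deposited text descriptions, the authors aligned to mm10 with annotation M21; aligner, program versions, strand setting and read filters: not given in the sources used here. The labels' protocols name a directional kit. Per the file headers, RSEM-format tables hold expected counts, TPM, posterior mean TPM with its interval (level not given) and, per transcript, the percent of the gene's TPM; a kallisto-format table gives estimated counts with TPM. TPM as deposited by the authors were kept unscaled. Reads of CAST alleles were assigned with the reference annotation, and the effect of this was not tested.

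Computed here: means and SD of the 2 animals; shares of starts and exons as sums of transcript TPM, which rest on the authors' assignment of reads to transcripts; ratios of expected counts rounded to whole numbers, with 0.5 reads added, on TMM sizes (edgeR 4.0.16); Clopper-Pearson intervals (scipy). The ratio rule was tested on simulated counts with counting error alone and changes well above 2-fold in genes with many reads. Changes near 2-fold, genes with few reads and variation between animals were therefore not covered. Alternatives covered the table, scaling (DESeq2 1.42.0 size factors, totals, spike-ins), pseudocount, filters and leaving out each animal. Named genes were the members, the top pair and lowest of the 3 lists of related genes, Pex5, and genes meeting the ratio rule; named transcripts held at least 5% of their gene in an animal, with others singled out after their values were seen. Marker lists are given by medians, and Wfs1 was named after its level was seen. Some genes of the peroxisomal list were left out and are not reported here. The members and lists were chosen with earlier results of these data known. With 2 libraries of 1 group, genes of similar pattern could not be sought. Other HCN genes were not analysed here.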

Additional observations from a re-analysis of the deposited data

How the results depend on the processing

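With 1 group of 2 animals, no result has a test, and leaving out either animal leaves the other's value, given in the report. No paired analysis was possible because there is 1 group. Rescaling to nuclear protein-coding genes raised the levels to 205.7 ± 1.19 TPM for Pex5l, 162 ± 7.14 for Hcn2, 16.0 ± 1.65 for Hcn3 and 5.71 ± 0.340 for Hcn4 (SD, n = 2). On that scale Hcn2 varied more between the animals than Pex5l, the reverse of the unscaled TPM. The kallisto-format table gave 98.6, 66.4 and 5.66 TPM for Pex5l, Hcn2 and Hcn3, posterior means gave 68.6 for Hcn2, and coding transcripts alone, an alternative chosen after seeing the data, gave 72.98 for Pex5l and 4.02 for Hcn3. The order of levels was the same in the means of all these settings. The log2 gap of Pex5l over Hcn2 was 0.57 in the kallisto-format table, 0.22 in CPM and 0.046 for coding transcripts of the RSEM-format table. That of Hcn2 over Hcn3 was 3.64 in CPM and 4.14 for these coding transcripts. That of Hcn3 over Hcn4 was 1.25 in the kallisto-format table, 0.23 in CPM and 0.69 for these coding transcripts. Scaling to spike-ins gave ratios of -0.034 for Hcn2 and 0.074 for Pex5l, against -0.11 and -0.01 with TMM sizes, so the direction for Pex5l turned. It also turned with totals of gene reads, at 0.026, but not with DESeq2 size factors, at -0.015, or kallisto-format counts, at -0.032. Genes called higher in replicate 2 numbered 187 in the kallisto-format table and 46 with at least 50 reads, and those higher in replicate 1 numbered 64 with at least 50 reads.

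Shares moved with the table and unit. The coding share of Hcn3 was 66.3% in the kallisto-format table, 53.8% by posterior means and 89.4% of expected counts. For Pex5l, the kallisto-format table and expected counts gave 82.5% and 84.9% for coding transcripts, 35.7% and 40.7% for the upstream start, 47.2% and 59.0% for the middle start, 76.1% and 72.97% for the exon of 72 bases, 46.2% and 44.3% for the exon of 105 bases and 28.9% and 19.5% for the longer exon. The downstream start took 17.1% in kallisto-format TPM and 3.04% by posterior means. The cause of these shifts was not tested. The low counts of Hcn3 and Hcn4 limit the precision of their ratios and of the Hcn3 transcript split.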
